A study of Mus musculus with 6 samples.

Results

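The 55 genes described here carry symbols of the zinc finger families Zfp (44 genes), Zbtb (6), Klf (3), Zscan (1) and Zkscan (1), out of 5538 genes in the table. They were chosen by a rule on the symbol that uses no measured value, but with earlier results of these data known. The mouse annotation holds 488 protein-coding genes whose symbols match, so 11.3% of them have a value here. The table lists only genes at 7 TPM (transcript abundance corrected for transcript length and scaled to a fixed total per library) or more in every library. The 3 annotated Zfhx genes have no value, and of 19 family genes listed for description wherever they had one (Zfp36, Zbtb16 and Zfp423 among them), 3 did: Klf7, Klf9 and Zbtb20.

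RNA came from the perioculomotor region of the midbrain, around the oculomotor nucleus, of C57BL/6 mice that expressed a drug-dependent Cre recombinase, CreER, under the Fos promoter and a Cre-inducible ribosomal protein, eGFP-L10a. Each mouse had 6 hr of sleep deprivation followed by 3 hr of recovery sleep. The drug 4-OHT was given just before the first or the second of these phases, and the series text speaks of neurons labelled in recovery sleep, while single libraries are titled only IP or Input with a number. IP (3 libraries) is RNA recovered with antibodies against eGFP, hence from ribosomes of cells in which Cre had acted, and Input (3 libraries) is read here as RNA of the same tissue before that step. Each repeat pooled 4 to 5 mice. All libraries therefore share the transgenes, the sleep loss and the recovery, and ages and sexes are not stated for any of them. In such bulk samples, fewer cells of a type and less RNA per cell cannot be told apart.

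A classical zinc finger is a short loop of protein folded around a zinc ion by a pair of cysteines and a pair of histidines (C2H2), and a string of fingers reads a stretch of DNA. The amino-terminal part decides what the protein does there. Many Zfp proteins carry a KRAB box, which recruits Trim28 and with it histone methylation and silencing, above all at transposable elements. Zbtb proteins carry a BTB domain that pairs the protein with itself and binds co-repressors. Klf proteins have 3 fingers near the carboxy terminus that read GC-rich and CACCC sequences, and several are known from neurons as responders to hormones or as factors for axon growth.

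The label was checked against the annotated coding sequences. Of the 55 members, 51 encode at least 1 C2H2 finger, and 12 hold the conserved residues of a KRAB box. The 4 members without a match were Zfp365, Zfp330, Zfpl1 and Zbtb8os. Zfp365 is a centrosomal protein, Zfpl1 a membrane protein of the Golgi, and Zbtb8os, named only for lying opposite Zbtb8a, is the tRNA-ligation factor archease. Several members with 1 to 3 fingers are known for work on RNA or ribosomes, among them Zfp593 and Zfp622 (maturation of the large ribosomal subunit) and Zfp106 and Zfp638 (RNA binding). Zfp207 is known for its work at the mitotic spindle. The symbols thus cover more than transcription factors.

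The 3 Klf members are shown first because each had an IP minus Input difference above 0 relative to the median gene, as had 51.8% of all genes. Their coding sequence across the 3 fingers, 5′ to 3′, from the annotated transcripts on build GRCm38, is printed in lower case with the codons of the zinc-holding cysteines and histidines in capitals.
Klf13 (chromosome 7, minus strand): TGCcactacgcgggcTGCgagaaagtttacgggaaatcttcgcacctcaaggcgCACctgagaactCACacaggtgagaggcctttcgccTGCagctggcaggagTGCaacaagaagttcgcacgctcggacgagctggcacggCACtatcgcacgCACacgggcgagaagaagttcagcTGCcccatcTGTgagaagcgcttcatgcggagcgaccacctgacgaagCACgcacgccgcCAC
Klf9 (chromosome 19, plus strand): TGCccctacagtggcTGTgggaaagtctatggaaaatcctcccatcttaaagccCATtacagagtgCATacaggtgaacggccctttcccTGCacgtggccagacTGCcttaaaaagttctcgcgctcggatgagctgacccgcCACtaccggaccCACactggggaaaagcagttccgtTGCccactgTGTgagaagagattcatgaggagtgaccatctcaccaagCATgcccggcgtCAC
Klf7 (chromosome 1, minus strand): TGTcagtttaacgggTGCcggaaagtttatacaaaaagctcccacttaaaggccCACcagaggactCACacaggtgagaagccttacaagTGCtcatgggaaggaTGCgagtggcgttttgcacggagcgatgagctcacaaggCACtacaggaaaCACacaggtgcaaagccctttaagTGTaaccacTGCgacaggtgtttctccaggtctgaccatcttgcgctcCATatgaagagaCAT
Each array is 243 bases long with its capitals at the same places. Klf9 and Klf13 share 72.8% of bases and 81.5% of encoded residues, Klf7 and Klf13 59.3% and 64.2%, and Klf7 and Klf9 57.2% and 61.7%. The longest identical run between any of these arrays is 16 bases. No run of 50 bases in the annotated Klf7 or Klf9 transcript occurs on the same strand in a transcript of another gene, and 0.173% of those in Klf13 do.

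IP and Input were compared as log2(TPM + 1) minus the median gene of the same library, since the median gene itself moved between 27.7 and 67.2 TPM. On this scale 29 of 55 members stood higher in IP, beside 51.8% of all genes, and the median member differed by 0.024, beside 0.020 for all genes. No member passed the test across all genes (limma, adjusted p of 0.05): 0 were called higher and 0 lower, beside 0% and 0% of all genes, with a smallest adjusted p of 0.649 among members. At an unadjusted p under 0.05, 2 members were higher (3.58% of all genes were) and 0 lower (3.85%). All 3 IP values lay above all 3 Input values in 2 members, Klf13 and Zbtb7a, or 3.64% (6.93% of all genes), and below them in 3, Zfp512, Zfp422 and Zfp706, or 5.45% (9.71% of all genes). Both shares are under those of the whole table. In 39 of the 55 members the difference was smaller than its own standard error. With 3 libraries a group, an exact permutation test of 1 gene cannot go below 0.1.

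**Figure D1:**
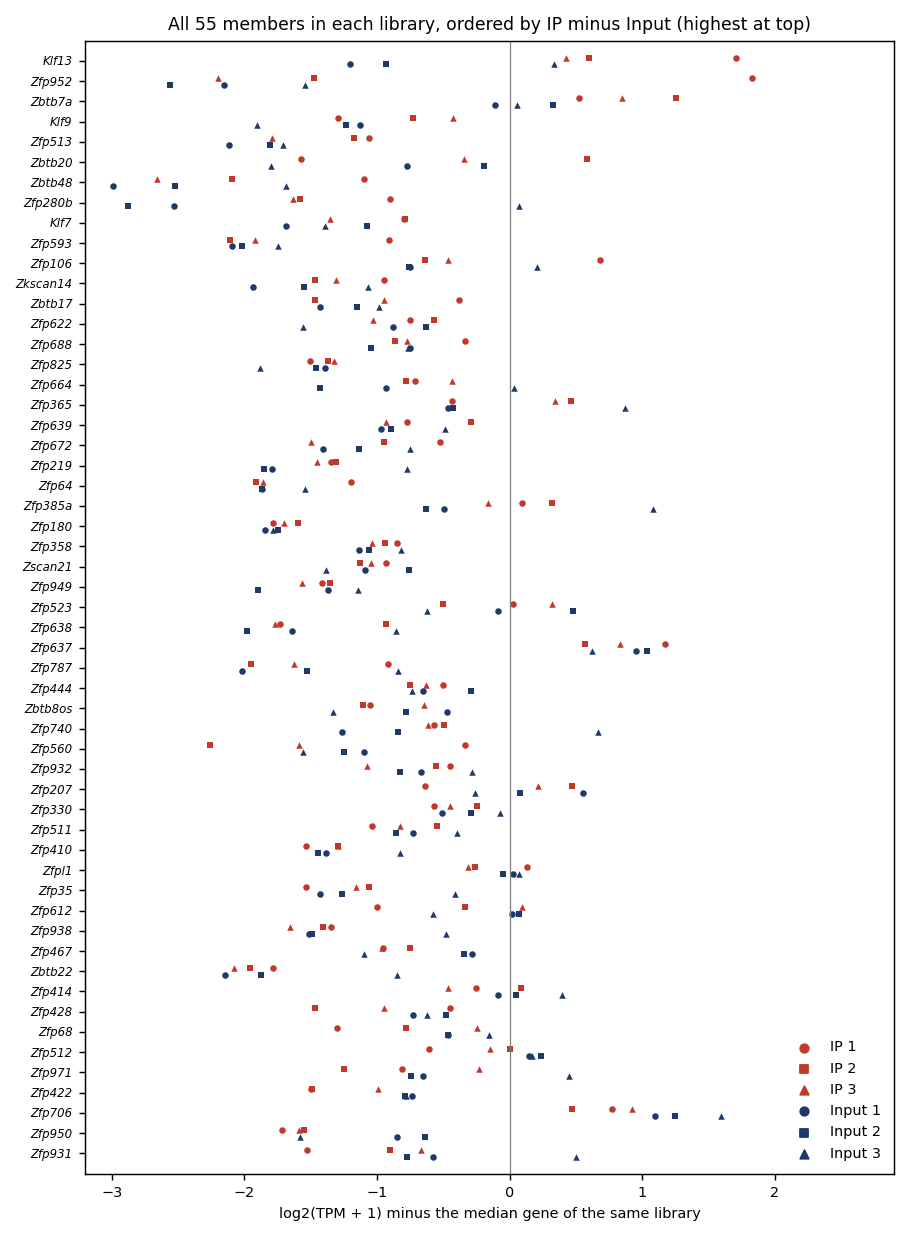
Each member's log2(TPM + 1) minus the median gene of the same library (horizontal axis) in the 6 libraries; red marks IP, dark blue marks Input, and the marker shape (circle, square, triangle) gives the replicate, 1 to 3. Members run from the highest IP minus Input difference (Klf13, 1.51) to the lowest (Zfp931, -0.75), and most lie left of 0, below the median gene.

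IP 1 and Input 3 stood apart from the other libraries of their group. Across genes, on the log2 scale, IP 2 and IP 3 correlated at r = 0.962 and Inputs 1 and 2 at 0.973, while IP 1 correlated with IP 2 and IP 3 at 0.831 and 0.882, and Input 3 with Inputs 1 and 2 at 0.722 and 0.736. The median gene was at 27.7 TPM in IP 1 and 31.1 in Input 3, and at 51.0 to 67.2 in the others. Astrocyte markers (6 of 9 measured, Aqp4 not among them) summed to 864, 2194 and 2209 TPM in IP 1 to 3 and to 3673, 4043 and 827 in Inputs 1 to 3. Aldoc made up most of each sum. Gfap alone was highest in Input 3, at 21.7, 35.8 and 67.3 TPM across Inputs 1 to 3. Relative to the median gene, S100b was level across Input, at 1.64, 1.89 and 1.74. Oligodendrocyte markers (6 of 8, Mog not among them) summed to 365, 2920 and 4437 TPM in IP and to 4108, 4877 and 536 in Input. Neuronal markers (7 of 7) summed to between 3083 and 7160 TPM in every library. Relative to the median gene, 4 of the 7 stood higher in IP, with differences from 1.22 (Nefl) to -0.80 (Syt1). Cholinergic markers, Chat, Slc18a3 and Isl1, summed to 235, 367 and 243 TPM across IP 1 to 3 and to 88.5, 120 and 233 TPM across Inputs 1 to 3. Across Inputs 1 to 3, Slc18a3 had 43.1, 69.3 and 176 TPM, Chat 34.7, 36.1 and 40.1, and Isl1 10.7, 14.6 and 16.4. Of 8 microglial markers 1 had a value (Ctss, 12.03 to 35.6 TPM), and of 9 endothelial and mural markers 1 (Ly6c1, 50.3, 278 and 67.3 TPM in IP and 21.9 to 35.4 in Input). The part of these shifts in the results below was not tested. Many results, though not all, are also given without IP 1 and Input 3, that is for 2 libraries against 2. In that fit 3 members were called higher, Klf13, Zbtb7a and Zfp365 (5.45%, beside 3.38% of all genes), and 0 lower (2.89% of all genes). IP 1 and Input 3 were left out because they stood apart in these same data, which narrows the spread within groups by construction. The p-values of that fit, here and below, are thus no separate support.

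Members stood below the typical gene of the table. Their median mean level was 27.8 TPM, beside 51.3 TPM for all genes, and in sum they took 0.130% to 0.262% of the listed TPM of a library. The range ran from Zbtb48 at 9.85 TPM, close to the lowest level listed, to Zfp706 at 103 TPM. Relative to the median gene, the median member lay at -0.85, -0.90 and -0.95 in IP 1 to 3 and at -0.94, -0.86 and -0.75 in Inputs 1 to 3, so the groups overlapped. On that scale Input 3 held the highest Input value in 34 of 55 members (61.8%, beside 45% of all genes), and IP 1 the highest IP value in 23 (41.8%, beside 47.1%).

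Klf13, a factor of GC-rich promoters known from T cells (chromosome 7, 63886351 to 63938915), had 92.5, 86.3 and 68.9 TPM in IP 1 to 3 and 27.3, 34.7 and 39.5 TPM in Inputs 1 to 3. Every IP library lay above every Input library, by a margin of 29.4 TPM between the nearest. The means were 82.5 ± 12.3 and 33.8 ± 6.13 TPM (SD, n = 3 each), a ratio of 2.44. Relative to the median gene the log2 difference was 1.51 (SE 0.50, limma adjusted p = 0.649). Without IP 1 and Input 3 it was 1.58 (SE 0.20), adjusted p = 0.00373. On the centred scale the nearest values, 0.43 in IP 3 and 0.34 in Input 3, were close. The gene overlaps the coding gene E030018B13Rik on the opposite strand, and the sources used here do not say whether counting used strand.

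Klf9, which is induced by glucocorticoids and thyroid hormone in the brain (chromosome 19, 23141226 to 23168134), stood at 10.7, 33.7 and 37.5 TPM in IP 1 to 3 and at 28.8, 27.9 and 7.56 TPM in Inputs 1 to 3. IP 1 and Input 3 were the low libraries, and the groups overlapped. The log2 difference was 0.61 (SE 0.33, limma adjusted p = 0.688) and 0.60 (SE 0.22) without IP 1 and Input 3, but 0.37 without Input 3 alone. Klf7, a factor for axon growth (chromosome 1, 64029447 to 64122282), had 15.5, 32.3 and 19.3 TPM in IP and 19.3, 31.4 and 11.2 TPM in Input, a difference of 0.41 (SE 0.28, limma adjusted p = 0.731). Its highest values were those of replicate 2 in both groups. The 3 Klf members had a median of 0.61, and each was above 0 with and without IP 1 and Input 3. Over all 6 libraries 51.8% of all genes were above 0. The Klf library medians were -0.79, -0.73 and -0.43 in IP and -1.21, -1.07 and -1.39 in Input, which did not overlap. They are medians of 3 genes and fell on different genes between libraries, while Klf9 and Klf7 each overlapped between groups.

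**Figure D2:**
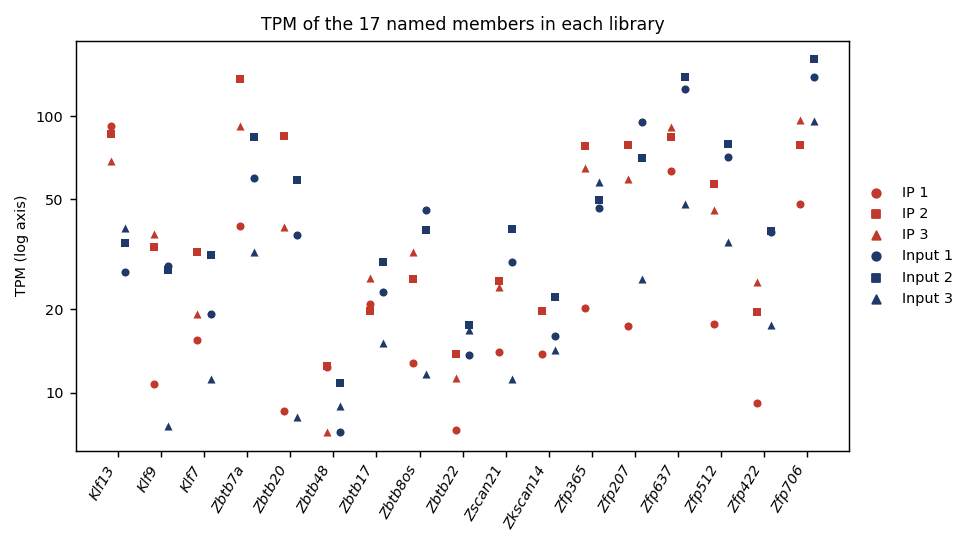
TPM (log axis) of the 17 named members per library; colour gives the group (red IP, dark blue Input) and shape the replicate (circle 1, square 2, triangle 3). Klf13 is the one gene here whose IP points (68.9 to 92.5 TPM) all lie above its Input points (27.3 to 39.5 TPM) before centring, and IP 1 and Input 3 are both the lowest of their groups in 12 of the 17 members.

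The 6 Zbtb members had a median difference of 0.35, with 4 of 6 above 0. Zbtb7a, a repressor of fetal globin genes also called LRF (chromosome 10, 81135220 to 81152995), had 40.1, 136.5 and 92.4 TPM in IP and 59.6, 84.4 and 32.4 TPM in Input. These values overlapped, and they separated only relative to the median gene, at 0.52, 1.26 and 0.85 in IP and -0.11, 0.33 and 0.058 in Input. The log2 difference was 0.78 (SE 0.28, limma adjusted p = 0.649), and without IP 1 and Input 3 it was 0.94 (SE 0.23, adjusted p = 0.0490). No other gene overlaps it in the annotation.

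Zbtb20, a factor of hippocampal neurons and of astrocyte formation (chromosome 16, 42875881 to 43642602), had 8.62, 85.0 and 39.9 TPM in IP and 37.2, 58.6 and 8.20 TPM in Input. Its lowest values were those of IP 1 and Input 3. These libraries had the lowest TPM sums of astrocyte and oligodendrocyte markers and also the lowest median gene. The part of those cells in the Zbtb20 values was not tested. The difference of 0.48 had an SE of 0.61, and it was 1.04 without IP 1 and 0.036 without Input 3. Zbtb48, which binds telomere repeats, had 12.4, 12.5 and 7.21 TPM in IP and 7.22, 10.9 and 8.94 TPM in Input (0.45, SE 0.49, and 0.024 without IP 1). Zbtb17, the Myc partner Miz-1, had 20.97, 19.8 and 25.9 TPM against 23.2, 29.7 and 15.2 (0.26, SE 0.32). Both sets of values overlapped.

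The last 2 members of the family stood below 0. Zbtb22 had 7.31, 13.8 and 11.3 TPM in IP and 13.7, 17.6 and 16.8 TPM in Input, a difference of -0.32 (SE 0.37). Without IP 1 and Input 3 the Zbtb22 difference was -0.0044 (SE 0.28). It lies in the MHC region of chromosome 17 and overlaps Tapbp on the same strand, which had 16.8 to 49.3 TPM. Zbtb8os, which is no zinc finger gene, had 12.8, 25.7 and 32.2 TPM in IP and 46.0, 38.7 and 11.7 TPM in Input (-0.073, SE 0.30). The Zbtb library medians, -1.08, -1.29 and -0.80 in IP and -1.10, -0.96 and -1.16 in Input, overlapped. Without IP 1 the family's median difference was 0.0056, and without both IP 1 and Input 3 it was 0.23.

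Promoters are printed for Klf13 and Zbtb7a, the members whose centred IP values all lay above Input. The windows run from 250 bases before to 50 after the RefSeq start (GRCm38.p6), 5′ to 3′ on the gene's strand, with capitals on the GC box GGGCGG and on the CACCC box CCACCC, the kinds of sequence Klf fingers read, on either strand. Overlapping matches were each counted.
Klf13 (chr7:63938866-63939165, minus strand): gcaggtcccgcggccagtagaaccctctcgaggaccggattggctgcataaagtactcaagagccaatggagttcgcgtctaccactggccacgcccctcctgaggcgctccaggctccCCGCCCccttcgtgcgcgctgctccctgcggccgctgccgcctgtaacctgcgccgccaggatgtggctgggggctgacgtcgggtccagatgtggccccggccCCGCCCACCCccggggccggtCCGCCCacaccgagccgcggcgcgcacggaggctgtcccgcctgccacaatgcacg
Zbtb7a (chr10:81136021-81136320, plus strand): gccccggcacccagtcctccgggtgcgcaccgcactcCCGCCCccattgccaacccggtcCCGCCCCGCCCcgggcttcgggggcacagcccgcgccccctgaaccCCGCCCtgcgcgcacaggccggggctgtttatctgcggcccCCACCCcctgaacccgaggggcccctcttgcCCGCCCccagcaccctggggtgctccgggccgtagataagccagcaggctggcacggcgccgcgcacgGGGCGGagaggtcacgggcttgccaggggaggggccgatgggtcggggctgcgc
The Klf13 window held 3 GC boxes and 1 CACCC box and was 72.0% G and C. The Zbtb7a window held 6 and 1 and was 77.7% G and C. Windows were found for 48 of the 55 members, 59 windows in all. A GC box was present in 54.2% of them, beside 63.6% of windows of genes in the table and 35.7% of all 32851 windows of the same length. A CACCC box was present in 33.9%, beside 36.2% and 31.5%. A match describes letters and shows no binding.

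The SCAN families had 1 measured member each. Zscan21, a factor for the alpha-synuclein gene, had 14.0, 25.3 and 24.2 TPM in IP and 29.7, 39.3 and 11.3 TPM in Input, a difference of 0.043 (SE 0.25). Zkscan14 had 13.9, 19.8 and 19.98 TPM in IP and 16.1, 22.2 and 14.3 TPM in Input (0.28, SE 0.30). Both overlapped between groups.

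The 12 members with a KRAB box match stood lower in IP in 8 of 12 cases, with a median difference of -0.18. The share above 0 was 33.3%, beside 51.8% of all genes. Of the 12, 0 had groups that did not overlap on the centred scale, beside 5 of all 55 members and 16.6% of all genes. The 12 were Zfp952, Zfp688, Zfp825, Zfp949, Zfp560, Zfp932, Zfp612, Zfp938, Zfp68, Zfp971, Zfp950 and Zfp931, from the highest difference to the lowest. The median KRAB member lay at -1.15, -1.30 and -1.20 relative to the median gene in IP and at -0.80, -0.94 and -0.68 in Input, so these library medians did not overlap. The other 43 members had a median difference of 0.063, with 25 above 0. They may include divergent KRAB boxes, which the match used here misses. Without IP 1 and Input 3 the KRAB median was -0.044, beside -0.037 for all genes. In that setting 4 of the 12 stood above 0, beside 2558 of 5538 genes.

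The KRAB members with the highest and the lowest differences depended on IP 1 and Input 3 to different degrees. Zfp952 had 100.5 TPM in IP 1, 19.7 and 10.3 in IP 2 and IP 3, and 13.7, 10.6 and 10.02 TPM in Input. Its difference of 1.47 had an SE of 0.96, and without IP 1 it was 0.25. Zfp931 had 8.95, 29.7 and 31.7 TPM in IP and 42.8, 38.8 and 44.4 TPM in Input, and all IP values lay below all Input values in TPM. On the centred scale IP 3 (-0.67) passed Input 2 (-0.78), and the difference was -0.75 (SE 0.40, limma adjusted p = 0.688). It was -0.36 without Input 3 and -0.11 without both IP 1 and Input 3. Zfp950 had 7.72, 18.6 and 16.2 TPM in IP and 35.2, 42.8 and 9.72 TPM in Input (-0.60, SE 0.30, limma adjusted p = 0.677), and its difference was -0.83 without IP 1 and Input 3. Input 3 was low there, between IP 1 and the other IP libraries. These members, Zfp952, Zfp931 and Zfp950, were picked after their values were seen.

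KRAB genes arise by local duplication, so their reads can be hard to place. Of all 55 members, 34 had no run of 50 bases in common, on the same strand, with a transcript of another gene, and 10 shared at least 7% of theirs, a limit set after the values were seen (the next member, Zbtb22, shared 1.52%). Zfp932 shared 55.5%, most of it with Gm15446, which stood at 12.01, 30.4 and 13.02 TPM in IP and at 21.8, 16.1 and 11.9 TPM in Input. Zfp931 shared 49.4% and Zfp971 40.1%, and these neighbours on chromosome 2 (178067695 to 178078476 and 178023284 to 178034022) both stood below 0. The gene that shared most with Zfp931, Gm14399, stood at 7.69, 34.4 and 19.9 TPM in IP and at 15.2, 33.7 and 21.7 TPM in Input. Zfp825 shared 28.7%, Zfp414 25.0%, Zfp330 19.1%, Zfpl1 12.8%, Zbtb8os 11.4%, Zfp706 7.83% and Zfp422 7.52%. Among these 10, a KRAB box was matched in Zfp932, Zfp931, Zfp971 and Zfp825 only. Zfp414 and Zfpl1 shared mostly with Gm20507 and Gm28374, which overlap them on the same strand. In all 10 genes the split of reads with the sharing genes is uncertain. Of them 1, Zfp825, stood above 0, beside 51.8% of all genes. The 10 had a median of -0.25 (-0.14 without IP 1 and Input 3), while the other 45 members had a median of 0.10 (0.11). The limit takes in Zfp706 and Zfp422, which are 2 of the 3 members with all centred IP values below Input. This contrast is thus no separate support.

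**Figure D3:**
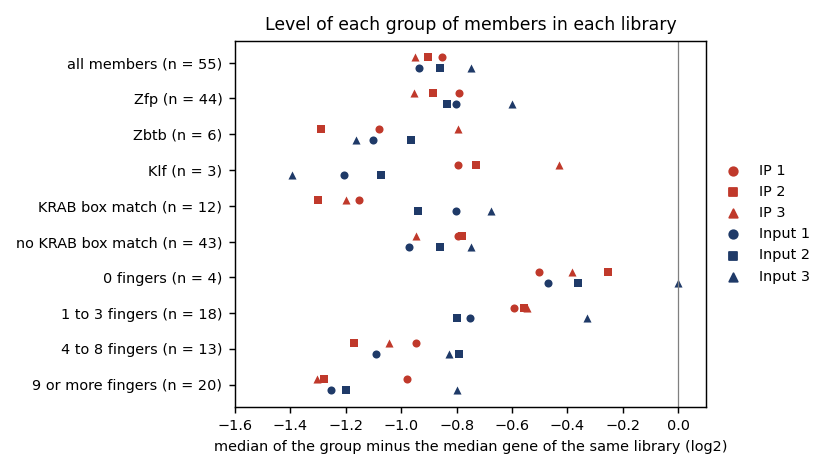
Median of each group of members minus the median gene of the same library (horizontal axis, log2); each point is 1 library, red for IP and dark blue for Input, shaped by replicate (circle 1, square 2, triangle 3). In the Klf group all IP points lie right of all Input points, in the KRAB group all lie left of them, and over all 55 members they overlap between -0.95 and -0.75. These are medians: gene by gene, 1 of the 3 Klf members (Klf13) and 0 of the 12 KRAB members had separate groups on this scale.

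The 17 Zfp members without a KRAB box match and with 4 or more fingers had a median difference of 0.063, with 10 above 0. Without IP 1 and Input 3 the median was 0.11, again with 10 above 0. Of these, Zfp422, a factor first described in tooth and muscle (chromosome 6, 116624016 to 116628999), had 9.17, 19.5 and 25.1 TPM in IP and 38.3, 38.4 and 17.6 TPM in Input. On the centred scale its IP values, -1.50, -1.49 and -0.99, lay below its Input values, -0.73, -0.79 and -0.79, which were nearly equal. The difference was -0.55 (SE 0.24, limma adjusted p = 0.649). Zfp637 was the second most abundant member, with 63.4, 84.2 and 91.7 TPM in IP and 125.2, 138.7 and 48.3 TPM in Input, and its difference was -0.013 (SE 0.26). Without IP 1 and Input 3 the Zfp637 difference was -0.29 (SE 0.19). The others were Zfp513, Zfp280b, Zfp664, Zfp639, Zfp672, Zfp219, Zfp64, Zfp180, Zfp358, Zfp523, Zfp787, Zfp444, Zfp410, Zfp35 and Zfp467, between 0.53 and -0.31. Relative to the median gene, Zfp180 lay between -1.598 and -1.84 in all 6 libraries, a narrow range. Zfp219 was even in TPM across Input, at 17.8, 17.9 and 17.7, and had 10.3, 22.2 and 18.01 TPM in IP. The coding gene Arhgef40, which overlaps Zfp219 on the opposite strand, had 198 TPM in IP 1 and 10.3 to 31.6 TPM in the other libraries.

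The 15 Zfp members with 0 to 3 fingers and no KRAB box match had a median difference of -0.11, with 6 above 0. Without IP 1 and Input 3 the median was 0.040, with 9 above 0. Zfp706, which encodes a very small protein known from stem cells (chromosome 15, 36997027 to 37007773), had 48.0, 78.4 and 97.3 TPM in IP and 138.4, 160.6 and 95.8 TPM in Input. IP 3 and Input 3 overlapped in TPM, and on the centred scale IP lay at 0.77, 0.47 and 0.92 and Input at 1.09, 1.25 and 1.595. The difference was -0.59 (SE 0.26, limma adjusted p = 0.649). Zfp512 (chromosome 5, 31452431 to 31481754) had 17.8, 56.7 and 45.8 TPM in IP and 71.1, 79.4 and 35.0 TPM in Input, a difference of -0.44 (SE 0.24, limma adjusted p = 0.692), which was -0.26 without IP 1. Its centred Input values, 0.14, 0.24 and 0.17, were nearly equal.

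Zfp365, which binds Disc1 and acts at the centrosome and in neurite growth (chromosome 10, 67886103 to 67912662), had 20.2, 78.3 and 65.0 TPM in IP and 46.4, 49.6 and 57.7 TPM in Input. IP 1 was the low library, and the groups overlapped. The difference was 0.13 (SE 0.44) over all libraries and 0.85 (SE 0.19, limma adjusted p = 0.0332) without IP 1 and Input 3. It was 0.41 without IP 1 alone and 0.57 without Input 3 alone, and was called in neither. Zfp207 had 17.4, 78.8 and 59.2 TPM in IP and 95.0, 70.9 and 25.8 TPM in Input (-0.11, SE 0.37). The rest of this group, Zfp593, Zfp106, Zfp622, Zfp385a, Zfp638, Zfp740, Zfp330, Zfp511, Zfpl1, Zfp414 and Zfp428, lay between 0.31 and -0.34. Zfp106 was close to even in TPM, at 45.0, 36.0 and 36.5 in IP and 37.8, 39.3 and 35.9 in Input. Zfp385a, known for carrying messenger RNA into dendrites, stood at 29.6, 70.9 and 45.4 TPM in IP and at 45.5, 42.9 and 66.7 TPM in Input.

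Without centring, the members with separate groups were others in part. In TPM, all IP values lay above all Input values in 1 member, Klf13 (1.82%, beside 1.7% of all genes), and below them in 2, Zfp931 and Zfp938 (3.64%, beside 6.21%). Klf13 alone was separate on both scales. Zfp938 had 10.3, 20.7 and 15.5 TPM in IP and 21.9, 23.2 and 22.02 TPM in Input, and its centred difference was -0.31 (SE 0.33), or -0.030 without IP 1 and Input 3.

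**Figure D4:**
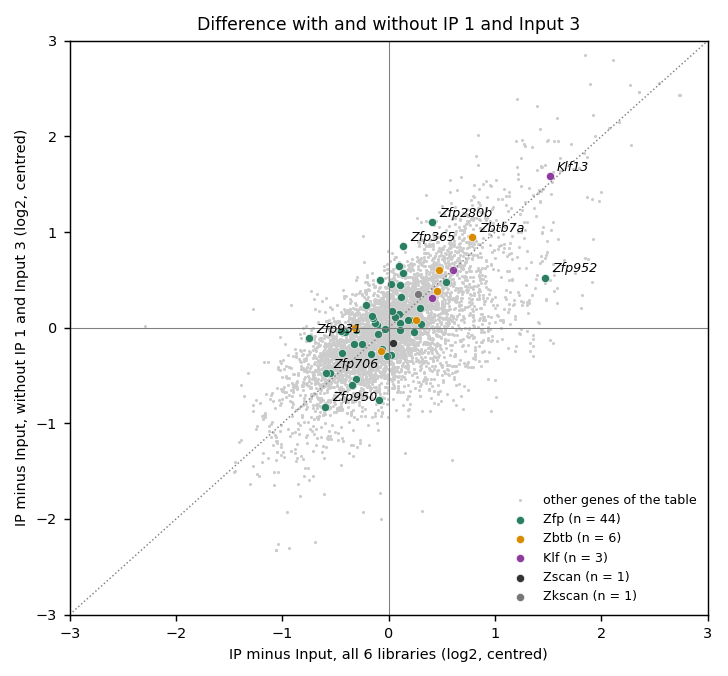
IP minus Input difference of each gene over all 6 libraries (horizontal axis) and without IP 1 and Input 3 (vertical axis), both log2 and centred on the median gene, with members coloured by family, other genes in grey and the dotted line marking equal values. The axes stop at 3 in both directions and leave out 20 other genes. Klf13 (1.51 and 1.58) lies near the line, Zfp952 (1.47 and 0.52) below it, and Zfp365 (0.13 and 0.85) above it.

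Partners of these proteins were read from fixed lists. Of 11 genes of the KRAB silencing machinery 5 had values, 2 of them above 0, with a median of -0.13, and 0 passed the test. Without IP 1 and Input 3 the median was 0.15, so its sign turned. Trim28, the partner of the KRAB box, had 163, 161 and 146 TPM in IP and 162, 177 and 90.9 TPM in Input (0.43, SE 0.34), and its difference was 0.15 without IP 1 and Input 3. Dnmt3a, a DNA methyltransferase, had 38.3, 78.7 and 45.9 TPM against 16.2, 41.9 and 20.5, with all centred IP values above Input (1.32, SE 0.41, limma adjusted p = 0.649). The HP1 genes Cbx3 and Cbx1 had differences of -0.36 (SE 0.51) and -0.53 (SE 0.30), and of 0.19 and -0.74 without IP 1 and Input 3.

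Of 21 co-repressor genes 13 had values, 9 of them above 0, with a median of 0.13, and 0 passed. Without IP 1 and Input 3 that median was -0.13, so its sign turned. Ctbp1, a co-repressor, had 246, 291 and 260 TPM in IP and 294, 321 and 67.3 TPM in Input, which overlapped before centring and did not after it, and Input 3 was the lowest (0.76, SE 0.41). Without IP 1 and Input 3 its difference was 0.13. Hdac1, a histone deacetylase, had 139 TPM in IP 1 and 16.9 to 38.4 TPM in the other libraries, and its difference of 0.88 became -0.25 without IP 1 and Input 3. Ctbp2 and Rbbp4 had the lowest differences, -0.39 (SE 0.25) and -0.66 (SE 0.31).

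Of 66 zinc finger genes outside the symbol rule 5 had values (Bcl6, Hivep3, Gzf1, Peg3 and Maz), 4 of them above 0, and 0 passed over all libraries. Bcl6, a BTB zinc finger repressor, had 8.34, 17.9 and 15.1 TPM in IP and 8.10, 7.90 and 10.1 TPM in Input (0.80, SE 0.40), and it was called higher without IP 1 and Input 3 (1.24, limma adjusted p = 0.0445). Of 4 Klf co-activators 0 had values.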

How the data were processed

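The 6 libraries, 3 IP and 3 Input, were grouped by title, and each is a pool of mice, so p-values measure the spread between pools. The authors deposited TPM, per the file headers. RSEM, DESeq and build mm10 are listed by the submitters without versions or roles. TPM keep no read depth, so counting intervals and floors cannot be given.

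Values were turned into log2(TPM + 1) minus the median gene of each library. IP was compared with Input by limma 3.58.1 in R 4.3.3 (group only, eBayes with trend), tested on simulated data, with p-values adjusted by Benjamini and Hochberg across the 5538 genes and called at 0.05, and no gene was filtered. Differences are log2 and understate the change of low genes. GENCODE M21 (GRCm38, the assembly of mm10) matched all 55 members by identifier. Fingers were counted in the longest coding sequence as cysteine, 2 to 4 residues, cysteine, 12, histidine, 3 to 5, histidine, and KRAB boxes by a pattern that misses divergent ones. Shared sequence is the share of 50-base runs of a transcript found, on the same strand, in transcripts of other genes.

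Members and lists were chosen with earlier results of these data known. Named members, 17 in all, are those with separate groups (up to 8 each way), the 6 most abundant, up to 6 of each small family, 19 listed genes where measured, and any called gene. Alternatives were no centring, a pseudocount of 0.1, quantile normalization, a mean of at least 20 TPM, the replicate number as a block, no variance trend, and leaving out each library or both IP 1 and Input 3.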

Additional observations from a re-analysis of the deposited data

How the results depend on the processing

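Of the counts and medians above, called counts were 0 higher and 0 lower under every alternative except without IP 1 and Input 3 (3 higher, 0 lower). That setting also raised the members with separate groups to 17 above (30.9%, beside 25.2% of all genes) and 9 below (16.4%, beside 31.5%), with fewer libraries to overlap. Leaving out single libraries gave 2 to 11 members above, the most without Input 3 (20%, beside 18.1% of all genes), and 3 to 6 below, the most without IP 1 (10.9%, beside 15.9%). Without centring 1 member lay above. The median over all members was -0.22 without centring, -0.067 under quantile normalization, -0.069 with a mean of at least 20 TPM and -0.080 to 0.073 with single libraries left out, so its sign was not stable. The family medians without centring were -0.30 (Zfp), 0.11 (Zbtb) and 0.36 (Klf), the whole table having shifted by -0.23. With single libraries left out Zbtb ranged from 0.0056 to 0.34 and Klf from 0.40 to 0.84.

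Of 17 named members 8 changed sign somewhere, none of them called over all 6 libraries. With single libraries left out the ranges were -0.17 to 0.13 for Zfp637, -0.34 to 0.22 for Zfp207, -0.10 to 0.57 for Zfp365, -0.038 to 1.04 for Zbtb20, -0.31 to 0.12 for Zbtb8os, -0.018 to 0.53 for Zbtb17, -0.58 to 0.073 for Zbtb22 and -0.11 to 0.20 for Zscan21. Without centring Zfp365 was at -0.11 and Zscan21 at -0.20, and without IP 1 and Input 3 Zfp207 was at 0.027 and Zscan21 at -0.16. The cause was not tested.

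With the replicate number as a block, 0 members were called higher and 0 lower, and the medians were 0.024 over all members, -0.051 for Zfp, 0.35 for Zbtb and 0.61 for Klf, as without it. Deviations of same-numbered libraries correlated at -0.10, 0.25 and -0.17. With 3 libraries a group, and with IP 1 and Input 3 standing apart, these values cannot tell whether the numbers pair the libraries. Read depth is unknown and could not be used to weigh the libraries.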
